A study of Mus musculus with 12 samples.

Results

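Paired receptors are surface proteins of myeloid cells that come in related activating and inhibitory forms. The group described here holds 10 genes chosen by name: the receptor genes Pirb, Pira2, Trem1, Trem3, Treml2, Siglece, Cd300a, Cd300lf and Cd300ld, and Tyrobp, which encodes a signalling adaptor. All 10 were among the 38887 genes of the deposited count table, and all 10 passed the filter on low counts that left 15494 genes for testing. Their transcripts were measured by sequencing of polyadenylated RNA from Ly6G+ spleen cells of mice at 4 ages, namely 2 days, 7 days, 14 days and 6 weeks, with 3 libraries per age. Ly6G marks mouse neutrophils. The label PMN-MDSC, for neutrophils able to restrain T cells, is given to all 4 ages. The series asks what regulates a suppressive activity that newborn neutrophils hold for a short time. The labels name no strain, sex, genotype, treatment or pooling, so the groups differ by age alone as far as the labels go, and p-values measure the spread between libraries that may be technical repeats.

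An inhibitory receptor of this kind carries tyrosine motifs in its cytoplasmic tail that recruit the phosphatases SHP-1, SHP-2 and SHIP-1, encoded by Ptpn6, Ptpn11 and Inpp5d. Its activating partner has a short tail and borrows an adaptor with an activating motif, either DAP12, the product of Tyrobp, or the Fc receptor gamma chain, the product of Fcer1g, and these recruit the kinase Syk. In neutrophils the balance of both kinds sets the threshold for adhesion, oxidative burst and cytokine release.

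On build mm10 (GRCm38), with GENCODE gene bounds, the Pir cluster of chromosome 7 holds Pirb at chr7:3711409-3720391 and Pira2 at chr7:3836812-3845051, both on the minus strand. Elsewhere on that chromosome lie Siglece at chr7:43651070-43660161 (minus) and Tyrobp at chr7:30413760-30417585 (plus). The Cd300 cluster holds Cd300a at chr11:114890041-114904654 (plus), Cd300ld at chr11:114982274-114989922 (minus) and Cd300lf at chr11:115116214-115133992 (minus), and the Trem cluster holds Trem1 at chr17:48232768-48246924, Trem3 at chr17:48247777-48258841 and Treml2 at chr17:48299498-48312533, all plus. No exon of a member overlapped an exon of another gene. RefSeq promoters on build GRCm38.p6 were at hand for 7 members. Those of 5 members are shown because these genes fall into 3 patterns described below: a pair of close relatives (Pirb and Pira2), 2 neighbours that were highest at 6 weeks (Cd300a and Cd300ld), and a gene of the same cluster that was highest at 2 days (Cd300lf). Each line runs 5′ to 3′ and ends just before the annotated start. Capitals mark the core hexamer bound by the myeloid factor PU.1 (GAGGAA, or TTCCTC on the other strand) and a spaced C/EBP half-site pair (TTNNGNAA, or TTNCNNAA on the other strand), which overlap in the run TTGAGGAA of Pirb and Pira2.
Pirb, chr7:3720392-3720632, minus strand: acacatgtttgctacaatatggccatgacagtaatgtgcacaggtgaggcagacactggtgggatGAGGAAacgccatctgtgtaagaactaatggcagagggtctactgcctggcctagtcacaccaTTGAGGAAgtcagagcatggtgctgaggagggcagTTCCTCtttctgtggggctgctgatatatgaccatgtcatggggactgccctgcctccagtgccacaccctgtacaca
Pira2, chr7:3845052-3845301, minus strand: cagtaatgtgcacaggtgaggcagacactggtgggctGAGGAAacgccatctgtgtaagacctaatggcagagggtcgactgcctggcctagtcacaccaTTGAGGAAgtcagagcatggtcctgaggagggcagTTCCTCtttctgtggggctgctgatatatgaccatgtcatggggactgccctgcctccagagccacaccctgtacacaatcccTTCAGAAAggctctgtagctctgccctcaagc
Cd300a, chr11:114889791-114890040, plus strand: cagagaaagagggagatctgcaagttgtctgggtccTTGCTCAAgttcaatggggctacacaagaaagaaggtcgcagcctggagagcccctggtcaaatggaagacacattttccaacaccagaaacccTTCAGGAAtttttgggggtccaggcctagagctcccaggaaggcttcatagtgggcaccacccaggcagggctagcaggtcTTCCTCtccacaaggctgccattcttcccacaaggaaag
Cd300ld, chr11:114989923-114990136, minus strand: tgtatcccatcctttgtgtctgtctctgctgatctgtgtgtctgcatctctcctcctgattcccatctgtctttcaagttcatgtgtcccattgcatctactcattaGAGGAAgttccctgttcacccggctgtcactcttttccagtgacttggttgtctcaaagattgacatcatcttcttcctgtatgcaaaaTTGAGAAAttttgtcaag
Cd300lf, chr11:115133993-115134242, minus strand: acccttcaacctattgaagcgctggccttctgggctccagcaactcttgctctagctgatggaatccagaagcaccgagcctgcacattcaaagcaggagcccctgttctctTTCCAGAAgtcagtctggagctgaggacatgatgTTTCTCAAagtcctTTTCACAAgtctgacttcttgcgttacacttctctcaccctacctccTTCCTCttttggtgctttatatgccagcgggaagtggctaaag

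The Pirb and Pira2 promoters were the same at 217 of 222 aligned bases (97.7%). Over the 250 bases before the start, the PU.1 hexamer occurred in 7 of 7 member promoters and in 23.3% of 32851 mouse promoters. The C/EBP pattern also occurred in 7 of 7, against 36.8% of all promoters. A match of letters is a description of the window and not a bound site.

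Library totals ran from 34495767 to 38795913 counts, so counting error is small for every member. Neutrophil identity was checked on Ly6g, at 74.9 to 190 CPM, which are counts scaled to a common library size, across the 12 libraries, and on the alarmin gene S100a8, at 8701 to 16340 CPM. Libraries of 2 and 7 days held 1816 to 4010 counts of 4 Y-linked genes each and those of 14 days and 6 weeks held 0 or 1. The X-inactivation transcript Xist stood at 158.5 to 441.6 CPM in the former and 228.9 to 507.9 CPM in the latter. Y-linked and Xist transcripts thus occurred together at 2 and 7 days, and sex make-up and age cannot be told apart between these 2 sets. At 7 days the heat-shock gene Hspa1a stood at 11840 ± 1387 CPM, against 14.4 ± 8.61 CPM at 2 days (SD, n = 3 each), and its part in the 7-day values below was not tested. At 3 of the 4 ages 1 library led in at least 9 members. All 10 members were highest at 2 days in replicate 2, whose normalization factor was 0.828 against 1 and 1.09 for its partners. At 7 days replicate 2 led in 9 of 10 members and at 14 days replicate 1 in 9 of 10, and these 2 libraries also had the lowest factors of their ages (1.03 and 0.918). At 6 weeks the factors lay between 0.944 and 0.973, and the library with the lowest led in 6 of 10. In such bulk samples, fewer cells of a type and less RNA per cell cannot be told apart.

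Most members dipped at 7 days. Of the 10, 9 differed with age in a joint test over the 4 ages, against 69.2% of all genes tested, and Trem3 was the exception. Between 7 and 2 days, 0 members were higher and 7 lower, where 22.9% of all tested genes were higher and 25.8% lower. The median log2 fold change of the members was -1.17, against -0.01 over all genes tested. From 7 to 14 days the picture turned round, with 7 members higher and 1 lower, against 24% and 21.9% of all genes, and a median of 0.90 against 0.02. The 14-day and 2-day levels were closer: 0 members were higher and 2 lower, against 12.8% and 12.3% of all genes.

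**Figure D1:**
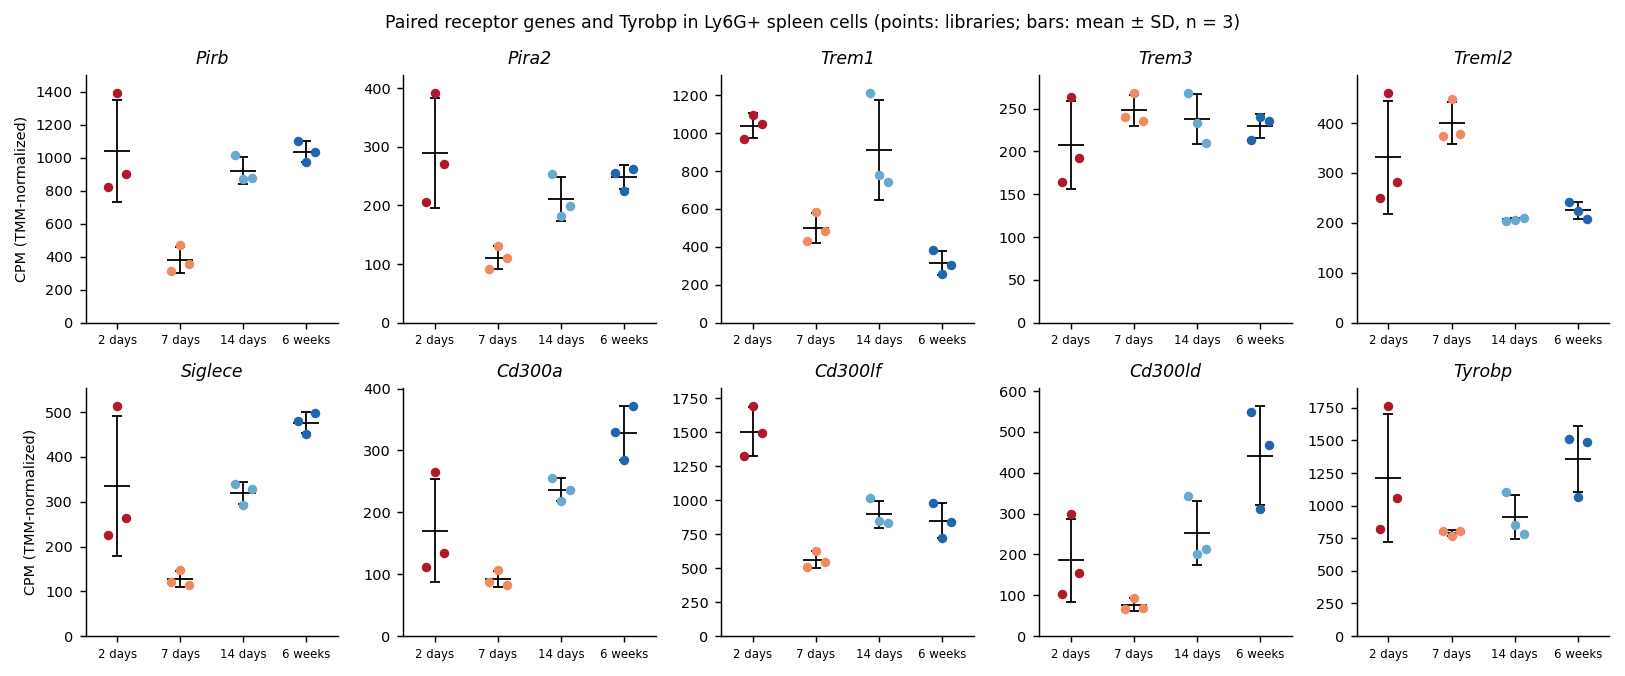
CPM of each member in each library, by age, with the mean and SD of 3 libraries as bars and the axis from 0. Pirb, Pira2, Siglece, Cd300a, Cd300lf and Cd300ld have their lowest points at 7 days, Trem1 is lowest at 6 weeks, Treml2 is highest at 7 days and Trem3 is nearly level.

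Against 7 days, 7 members were higher at 6 weeks and 2 lower, where 26.6% of all genes were higher and 24.5% lower, with a member median of 0.97 against 0.01. Between 6 weeks and 2 days, the longest interval, 2 members were higher and 3 lower, against 19.7% and 20.7% of all genes, and the member median of 0.07 lay close to the -0.04 of all genes. A single member, Trem1, differed between 6 weeks and 14 days, where it was lower and 0 members were higher, against 9.68% lower and 9.26% higher among all genes. Without 2-day replicate 2, the members called numbered 7 for 6 weeks against 2 days, 6 for 14 against 2 days and 5 for 6 weeks against 14 days. Without 6-week replicate 1, 3 members were called for 6 weeks against 2 days. These comparisons share libraries, so their counts are not independent of each other. Scaled by library totals alone, the median of all genes moved to 0.14 for 7 over 2 days and to -0.16 for 6 weeks over 7 days, and 7-day values are relative to that shift.

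**Figure D2:**
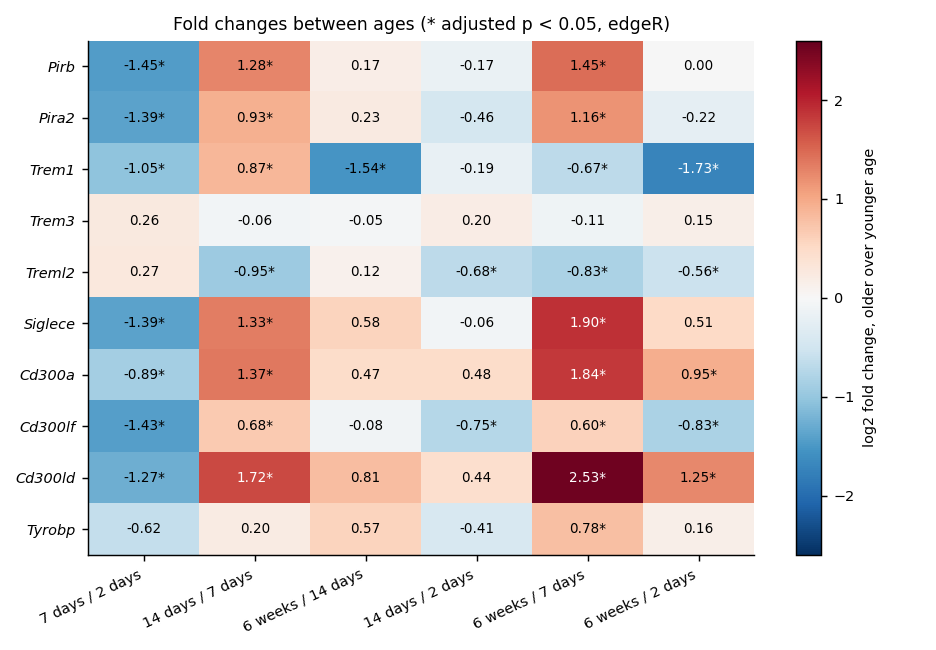
Log2 fold changes of the 10 members for the 6 pairs of ages, older over younger, with an asterisk where edgeR's adjusted p was below 0.05. The 7-over-2-day column is blue for 8 members and the 6-week-over-7-day column red for 7, while Trem1 and Treml2 are blue at 6 weeks over both 2 and 7 days.

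Pirb, the inhibitory member of the Pir family and a receptor for class I molecules, was at its lowest at 7 days and had about the same mean at 6 weeks as at 2 days. It measured 822, 1392 and 902 CPM at 2 days, 313, 470 and 356 CPM at 7 days, 1015, 873 and 876 CPM at 14 days, and 1103, 977 and 1032 CPM at 6 weeks. The 7-day libraries all lay below every library of the other ages, which overlapped each other. Pirb was 2.73-fold lower at 7 days than at 2 days (log2 fold change -1.45, SE 0.21, edgeR adjusted p = 0.000135) and higher at 14 days than at 7 days (1.28, SE 0.21, edgeR adjusted p = 0.000388). The means of 6 weeks and 2 days were 1037 ± 63.6 and 1039 ± 308 CPM, a log2 difference of -0.0017 with an SE of 0.20.

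Siglece encodes a sialic acid-binding inhibitory receptor of neutrophils and other myeloid cells. It stood at 225, 513 and 265 CPM at 2 days, 121, 148 and 114 CPM at 7 days, 339, 293 and 328 CPM at 14 days, and 480.5, 451 and 499 CPM at 6 weeks. Again the 7-day libraries were lowest without overlap, and the 6-week libraries were above those of 7 and 14 days. It was lower at 7 than at 2 days (log2 fold change -1.39, SE 0.25, edgeR adjusted p = 0.000700, or -0.92 without 2-day replicate 2). At 6 weeks it was 3.74-fold higher than at 7 days (SE 0.25 on the log2 scale, edgeR adjusted p = 7.68e-05). The differences of 6 weeks from 2 days (0.51, edgeR adjusted p = 0.114) and from 14 days (0.58, edgeR adjusted p = 0.124) missed the threshold, but both passed it without 2-day replicate 2 (0.96 and 0.57). The comparison with 14 days holds no 2-day library and shares only the scaling and the estimate of spread with that age. Without 2-day replicate 2, 14 days also stood above 2 days (0.39), where the fit of all libraries gave -0.06.

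Cd300a, an inhibitory receptor that binds phosphatidylserine on dying cells, had its highest level at 6 weeks. Its libraries held 112, 265 and 134 CPM at 2 days, 86.5, 106 and 82.3 CPM at 7 days, 255, 219 and 236 CPM at 14 days, and 329, 285 and 371 CPM at 6 weeks. Every 6-week library lay above every younger one, and 2-day replicate 2 alone reached the 14-day range. Cd300a was 1.93-fold higher at 6 weeks than at 2 days (log2 SE 0.26, edgeR adjusted p = 0.0118) and 3.58-fold higher than at 7 days (edgeR adjusted p = 0.000136). The fall at 7 days against 2 days was smaller (log2 fold change -0.89, SE 0.26, edgeR adjusted p = 0.0132). That last call shrank to -0.40 without 2-day replicate 2 and was lost without 7-day replicate 1 (-0.79) or 7-day replicate 3 (-0.76). Between 14 and 2 days Cd300a differed by 0.48 with no call, which it gained without 2-day replicate 2 (0.95) and with scaling by library totals alone (0.59). The difference of 6 weeks from 14 days (0.47, edgeR adjusted p = 0.229) missed the threshold. It passed without 2-day replicate 2 (0.46) and in the fit on the libraries of the 2 ages alone (0.46).

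Cd300lf, an inhibitory receptor that also binds phosphatidylserine and ceramide, had its highest level at 2 days and its lowest at 7 days. It measured 1328, 1692 and 1497 CPM at 2 days, 508, 629 and 545 CPM at 7 days, 1013, 848 and 831 CPM at 14 days, and 979, 721 and 843 CPM at 6 weeks. The 2-day libraries were highest and the 7-day libraries lowest, each without overlap, and 14 days and 6 weeks overlapped. Cd300lf was 2.69-fold lower at 7 than at 2 days (log2 SE 0.16, edgeR adjusted p = 2.25e-05). At 6 weeks it was lower than at 2 days (log2 fold change -0.83, SE 0.16, edgeR adjusted p = 0.00120) and higher than at 7 days (0.60, SE 0.16, edgeR adjusted p = 0.00681). At 14 days it was lower than at 2 days too (-0.75, SE 0.16, edgeR adjusted p = 0.00399). Each of these held in the 12 fits that left out 1 library.

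Among activating receptors, Cd300ld had the widest range. Its product signals through the Fc receptor gamma chain and has been tied in mice to the suppressive function of tumour neutrophils. It stood at 102, 299.5 and 156 CPM at 2 days, 66.4, 94.3 and 69.5 CPM at 7 days, 342, 200 and 214 CPM at 14 days, and 548, 310.5 and 468 CPM at 6 weeks. The 6-week libraries lay above all libraries of 2 and 7 days and overlapped those of 14 days at 1 library each. Cd300ld was 5.76-fold higher at 6 weeks than at 7 days (log2 fold change 2.53, SE 0.37, edgeR adjusted p = 0.000152) and 2.38-fold higher than at 2 days (1.25, SE 0.35, edgeR adjusted p = 0.0139). The call against 2 days was lost without 6-week replicate 1 (1.07), and the fall at 7 against 2 days (-1.27, edgeR adjusted p = 0.0107) was lost without 2-day replicate 2 (-0.73). Between 6 weeks and 14 days the difference of 0.81 (SE 0.35, edgeR adjusted p = 0.13) passed the threshold only without 2-day replicate 2 (0.80), and so did that between 14 and 2 days, 0.44, which was 0.97 without it. The first of these comparisons holds no 2-day library and shares only the scaling and the estimate of spread with that age.

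Pira2, an activating Pir receptor that signals through the Fc receptor gamma chain, was likewise lowest at 7 days. It measured 206, 392 and 271 CPM at 2 days, 91.3, 130 and 111 CPM at 7 days, 253, 182 and 199 CPM at 14 days, and 256, 225 and 263 CPM at 6 weeks. The 7-day libraries were again lowest without overlap. It was lower at 7 than at 2 days (log2 fold change -1.39, SE 0.22, edgeR adjusted p = 0.000293) and higher at 14 than at 7 days (0.93, SE 0.22, edgeR adjusted p = 0.00421). Between 14 and 2 days the value was -0.46, with a call only without 2-day replicate 1 (-0.62). Of the 50-base words in Pira2 transcripts 92.95% also occurred in transcripts of other genes, most of them in Gm15922, against 33.97% for Pirb, 3.18% for Cd300a, 2.29% for Cd300lf and 3.89% for Cd300ld. Reads of Pira2, and in part of Pirb, can thus have been divided among relatives. With the 9 genes of the Pir cluster summed to 1 feature, the values were -1.69 for 7 over 2 days (SE 0.22, edgeR adjusted p = 8.12e-05) and 1.36 for 14 over 7 days (SE 0.22, edgeR adjusted p = 0.000434).

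Trem1, a DAP12-coupled receptor that amplifies neutrophil responses, was the member that was lowest at 6 weeks. It stood at 969, 1098 and 1049 CPM at 2 days, 431, 584 and 483 CPM at 7 days, 1212, 779 and 741 CPM at 14 days, and 383, 256 and 302 CPM at 6 weeks. The 6-week libraries lay below every younger library, the 7-day libraries came next, and 2 and 14 days overlapped. Trem1 was 3.31-fold lower at 6 weeks than at 2 days (log2 fold change -1.73, SE 0.21, edgeR adjusted p = 5.07e-05) and 2.90-fold lower than at 14 days (-1.54, SE 0.21, edgeR adjusted p = 0.000481). It was also lower at 7 than at 2 days (-1.05, SE 0.21, edgeR adjusted p = 0.00131) and higher at 14 than at 7 days (0.87, SE 0.21, edgeR adjusted p = 0.00482). The smaller difference of 6 weeks from 7 days (-0.67, edgeR adjusted p = 0.0166) was lost when 7-day replicate 2 was left out (-0.55), and likewise for replicates 2 (-0.54) and 3 (-0.65) of 6 weeks.

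Trem3, another DAP12-coupled Trem receptor of the mouse, was nearly level, with 207 ± 51.4, 248 ± 17.7, 237 ± 29.2 and 229.9 ± 14.0 CPM at 2 days, 7 days, 14 days and 6 weeks (SD, n = 3 each). Its libraries overlapped between all pairs of ages, and the joint test gave an edgeR adjusted p of 0.49. Without 2-day replicate 2, the value of 0.26 for 7 over 2 days became 0.50, that of 0.20 for 14 over 2 days 0.41 and that of 0.15 for 6 weeks over 2 days 0.36, each with a call. Scaled by library totals alone, 7 over 2 days was 0.44 and 6 weeks over 7 days -0.28, also called.

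Treml2, the Trem-like receptor of B cells, macrophages and neutrophils, had its highest mean at 7 days, as Trem3 did. It measured 251, 460 and 282 CPM at 2 days, 373, 449 and 378 CPM at 7 days, 205, 206 and 210 CPM at 14 days, and 242, 225 and 208 CPM at 6 weeks. The 7-day libraries lay above all those of 14 days and 6 weeks, which overlapped. Treml2 was lower at 14 than at 7 days (log2 fold change -0.95, SE 0.19, edgeR adjusted p = 0.00173) and lower at 6 weeks than at 7 days (-0.83, SE 0.19, edgeR adjusted p = 0.00324). Calls against 2 days were fragile. At 6 weeks the value was -0.56 (edgeR adjusted p = 0.0341), lost without 2-day replicate 2 (-0.25), 6-week replicate 1 (-0.61), replicate 2 (-0.55) or replicate 3 (-0.50). At 14 days it was -0.68 (edgeR adjusted p = 0.0209), which was -0.36 without 2-day replicate 2 and lost without 14-day replicate 2 (-0.64) or replicate 3 (-0.69). Fits on the 6 libraries of the 2 ages also lost both (-0.55 and -0.68). Between 7 and 2 days Treml2 differed by 0.27 with no call, which it gained without 2-day replicate 2 (0.61) and with library totals alone (0.46).

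Tyrobp, whose product DAP12 carries the signal of Trem1 and Trem3, varied less than most receptors. It stood at 818, 1762 and 1060 CPM at 2 days, 803, 767 and 806 CPM at 7 days, 1101, 852 and 782 CPM at 14 days, and 1514, 1069 and 1490 CPM at 6 weeks. It was 1.71-fold higher at 6 weeks than at 7 days (log2 fold change 0.78, SE 0.25, edgeR adjusted p = 0.0205). That call was lost when any 7-day library was left out (0.75 in each case) or without 6-week replicate 1 (0.69) or replicate 3 (0.70). The lower value at 7 against 2 days (-0.62, edgeR adjusted p = 0.0578) missed the threshold, but passed it without 2-day replicate 1 (-0.76) and with DESeq2 (-0.61). At 6 weeks Tyrobp gained a call against 2 days (0.53) and against 14 days (0.56) only without 2-day replicate 2. The comparison with 14 days holds no 2-day library, and its value with all libraries was 0.57.

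Set on one scale of CPM per kilobase of merged exons, Tyrobp led at every age, from 1187 at 7 days to 2035 at 6 weeks. At 2 days Trem1 followed at 347 and Cd300lf at 292, ahead of Pirb at 232, Trem3 at 208 and Siglece at 181. The other 4 receptors stood between 35.9 and 83.7 at that age. At 6 weeks the order of receptors was Siglece at 258, Pirb at 232, Trem3 at 231, Cd300ld at 167, Cd300lf at 165 and Trem1 at 105. Levels of Pirb and Trem3, and of Cd300ld and Cd300lf, lay within 1 SD of each other there. Cd300a had the lowest level per kilobase at 2 days (35.9) and 7 days (19.3), and Treml2 at 14 days (42.1) and 6 weeks (45.8).

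Ratios of 2 counts in the same library do not depend on scaling. Trem1 gave 5.17 ± 0.90 counts per Trem3 count at 2 days, 2.01 ± 0.20 at 7 days, 3.79 ± 0.63 at 14 days and 1.38 ± 0.37 at 6 weeks (SD, n = 3 each). The libraries of 2 and 14 days thus lay above those of 7 days and 6 weeks without overlap. Cd300a per Cd300lf was 0.110 ± 0.041, 0.163 ± 0.011, 0.265 ± 0.017 and 0.390 ± 0.052 at the 4 ages from young to old. Cd300ld per Cd300lf stood at 0.119 ± 0.052, 0.136 ± 0.012, 0.277 ± 0.054 and 0.515 ± 0.073 at the same ages. Both ratios were higher at 6 weeks in every library than in any younger library. Pira2 per Pirb stayed between 0.208 and 0.311 in all 12 libraries. Trem1 per Tyrobp, a receptor set against its adaptor, was 0.623 to 1.19 at 2 days, 0.537 to 0.762 at 7 days, 0.915 to 1.10 at 14 days and 0.203 to 0.253 at 6 weeks. Siglece per Cd33, a pair of Siglec genes, was 0.362 ± 0.078, 0.467 ± 0.036, 0.754 ± 0.057 and 1.44 ± 0.056 at the 4 ages.

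**Figure D3:**
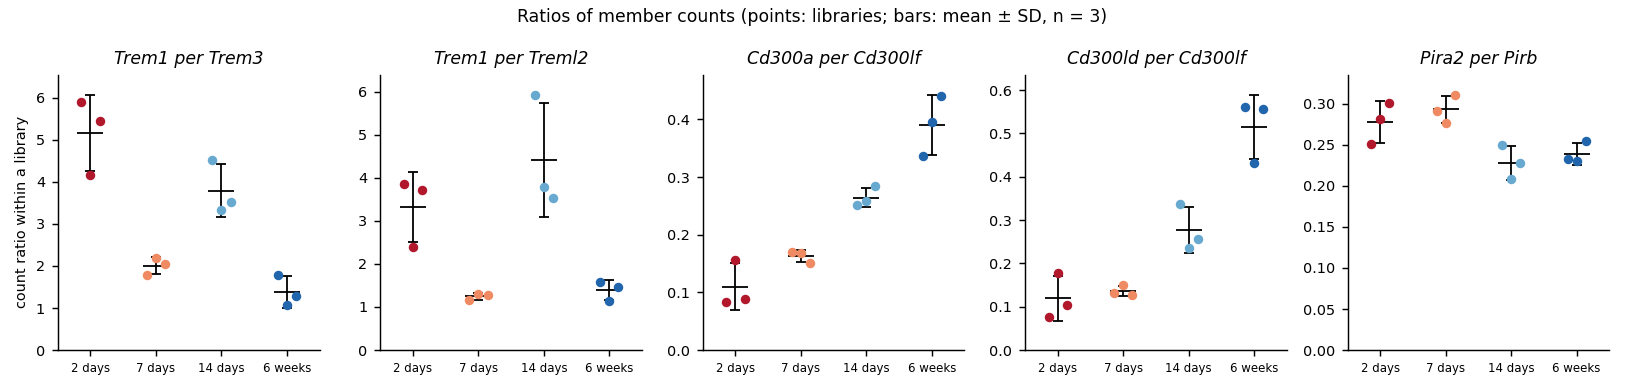
Ratios of the counts of 2 members within each library, by age, with mean and SD of 3 libraries as bars and axes from 0. Cd300a and Cd300ld per Cd300lf are highest at 6 weeks, both Trem1 ratios are lower at 7 days and 6 weeks than at 2 and 14 days, and Pira2 per Pirb stays between 0.208 and 0.311.

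Genes of the same chromosome clusters shared the member patterns to different degrees. Counts per cluster include the members themselves, so they are not separate from the member results. Single neighbours below were chosen after their values were seen. In the Pir cluster, 7 of 9 genes were lower at 7 than at 2 days and 0 higher, against 25.8% and 22.9% of all genes. At 6 weeks against 7 days 8 were higher, against 26.6% of all genes. Pirb and Pira2 are part of both counts. These 8 also include the pseudogene Gm15930, at 0.018 CPM at 7 days and 0.731 CPM at 6 weeks. Gm14548, a protein-coding Pir relative, had 63.3 CPM at 7 days against 385 CPM at 2 days (edgeR adjusted p = 4.14e-06), and was lower at 6 weeks than at 2 days (-1.31, edgeR adjusted p = 0.000531). These relatives share sequence, so reads divided among them are not independent counts. In the Cd300 cluster, 6 of 12 tested genes were lower at 7 than at 2 days and 1 was higher, against 25.8% and 22.9% of all genes. The 6 lower genes include the members Cd300a, Cd300ld and Cd300lf. They also include the processed pseudogenes Gm11698 (0.372 CPM at 7 days, 1.36 CPM at 2 days) and Gm11699 (0.518 and 1.68 CPM). Gm11699 lies within the bounds of Cd300lb. At 6 weeks against 2 days 6 were higher, Cd300a and Cd300ld among them, against 19.7% of all genes. Cd300lf was the 1 gene of that cluster lower at 6 weeks than at 2 days. Cd300lb, an activating DAP12-coupled receptor, also fell at 7 days against 2 days (-1.18, edgeR adjusted p = 0.00457), whereas Cd300e rose (1.55, edgeR adjusted p = 3.69e-05). The Trem cluster was mixed. There Treml4, between Trem3 and Treml2, rose at 7 days against 2 days (1.49, edgeR adjusted p = 3.05e-05) while Trem1 fell and Trem3 was not called.

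**Figure D4:**
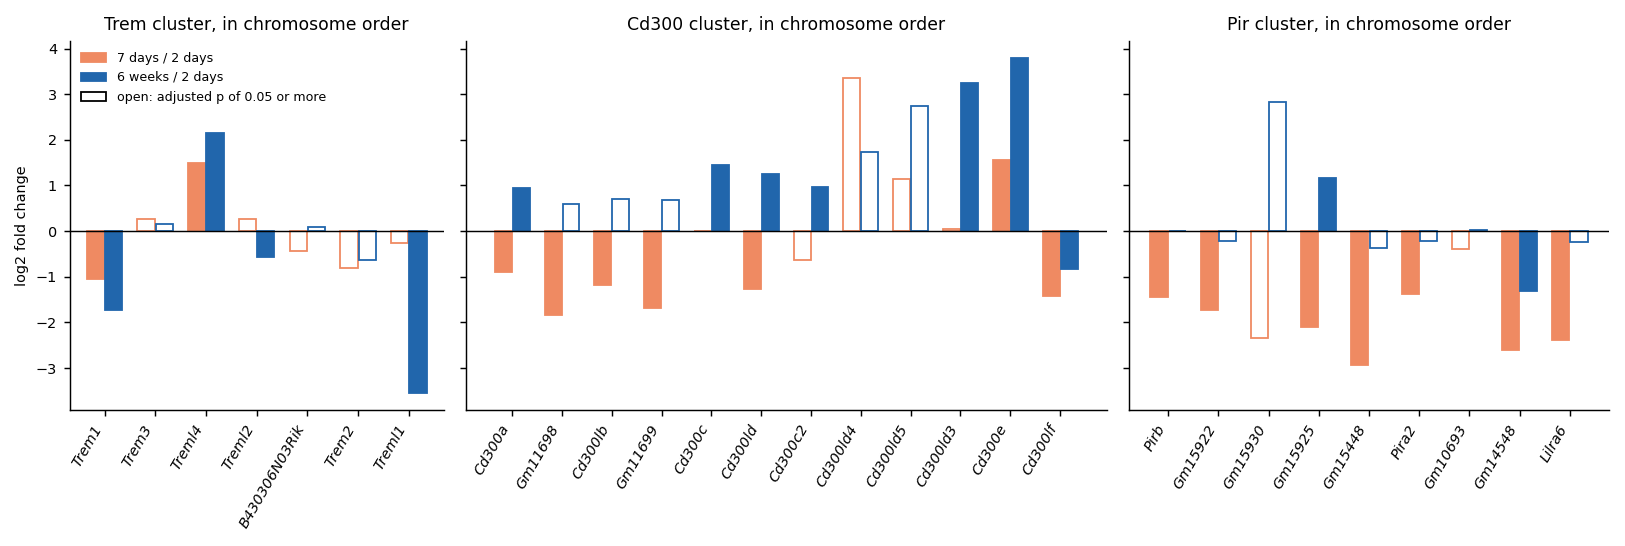
Log2 fold changes of tested genes in the Trem, Cd300 and Pir clusters, in chromosome order, for 7 over 2 days and 6 weeks over 2 days; open bars had an edgeR adjusted p of 0.05 or more. Filled 7-day bars point down across the Pir cluster, while Cd300lf is the only gene of the Cd300 cluster with a filled 6-week bar below 0.

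A wider list of 39 other genes of these and related receptor families had 29 in the table and 27 tested. At 7 against 2 days 6 were higher and 8 lower, near the 22.9% and 25.8% of all genes. At 6 weeks against 2 days 14 were higher and 2 lower, where 19.7% and 20.7% of all genes were. The median log2 fold changes were 0.04 and 0.96, against -0.01 and -0.04 over all genes. Cd300e, an activating receptor of monocytes, stood at 36.8 ± 3.02 CPM at 6 weeks against 2.65 ± 0.786 CPM at 2 days, and Lilra5 at 9.34 ± 0.600 against 0.312 ± 0.130 CPM. Lower at 6 weeks than at 2 days were Treml1, a receptor of platelets, and the Siglec gene Cd33, the 2 genes behind that count.

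Of 19 adaptors and activating signalling genes, 2 were higher and 9 lower at 7 against 2 days, where 22.9% and 25.8% of all genes were, with a median of -0.42 against -0.01 over all genes. At 6 weeks against 7 days 9 were higher and 0 lower, against 26.6% and 24.5% of all genes. Fgr, a Src-family kinase of myeloid cells, measured 257 ± 36.8 CPM at 7 days against 600 ± 218 CPM at 2 days, and Src 2.46 ± 0.286 against 7.18 ± 1.29 CPM. Fcer1g, named here as the partner of Pira2 and Cd300ld, was lower at 7 days as well (465 ± 51.5 against 665 ± 154 CPM, edgeR adjusted p = 0.0174). Of 10 inhibitory signalling genes, 0 were higher and 3 lower at 7 against 2 days, a number lower near the 25.8% of all genes. At 6 weeks against 7 days 5 of these genes were higher and 1 lower, against 26.6% and 24.5% of all genes. Dok3, an adaptor that restrains Syk-dependent signals, was lower at 7 days (282 ± 14.7 against 571 ± 130 CPM). Cbl, a ubiquitin ligase, was lower at 6 weeks (117 ± 29.2 CPM) than at 7 days (252 ± 30.0 CPM).

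Of 7 ligand genes, 3 were higher and 1 lower at 6 weeks against 2 days, against 19.7% and 20.7% of all genes. H2-K1, a class I heavy chain of the kind Pirb binds, was at 1069 ± 72.3 CPM at 6 weeks against 331 ± 26.2 CPM at 2 days. Hmgb1, a nuclear protein proposed as a Trem1 ligand, was lower at 73.7 ± 2.87 against 109 ± 9.83 CPM.

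For each member, the closest gene in log2 CPM over the 12 libraries was sought among genes of at least 10 CPM. Predicted genes (Gm or Rik names) and pseudogenes were left out, among them the Pir relatives Gm14548 and Gm15922. The closest were Apobr for Pirb (Pearson r = 0.994), Ttc39b for Pira2 (0.986), Osm for Trem1 (0.982) and Tcp11l2 for Trem3 (0.946). For Treml2 it was Socs6 (0.968), for Siglece Rgs3 (0.994) and for Cd300a Sirpb1c (0.993). For Cd300lf it was Il18rap (0.984), for Cd300ld Sirpb1b (0.993) and for Tyrobp Pfdn5 (0.964). These r values describe 12 shared libraries of 4 ages with their depth and scaling, and carry no test. The closest genes of Cd300a and Cd300ld were thus both SIRP beta receptors.

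Markers of other cells that carry some of these receptors differed between ages. The 17 monocyte and macrophage markers, all with counts at every age, summed to 1410 to 1747 CPM at 2 days, 2473 to 2525 at 7 days, 1797 to 1980 at 14 days and 4766 to 4965 at 6 weeks. The list did not move as one. At 7 against 2 days 12 of its genes were higher and 1 lower, against 22.9% and 25.8% of all genes. At 6 weeks against 2 days 14 were higher and 1 lower, against 19.7% and 20.7% of all genes. Genes chosen here after their values were seen show the split. The macrophage gene Vcam1 stood at 523 ± 18.1 CPM at 7 days against 54.1 ± 3.25 CPM at 2 days. Cd14, a monocyte marker, was the gene that fell in both comparisons, at 502 ± 35.4 CPM at 2 days, 86.3 ± 7.97 at 7 days, 309.7 ± 122 at 14 days and 208 ± 62.4 at 6 weeks. The classical monocyte markers Ly6c2 and Ccr2 were called in neither, with 406 ± 38.3 CPM of Ly6c2 at 6 weeks and 411 ± 83.6 CPM at 2 days. Among the members, Siglece, Cd300a, Cd300ld and Tyrobp had their highest mean at 6 weeks, as the sum of the list did. The same members had their lowest mean at 7 days, where that sum lay above those of 2 and 14 days. Mast cell and basophil markers (12 genes) summed to 4022 to 6646 CPM at 2 days, 650 to 858 at 7 days, 1031 to 1103 at 14 days and 1421 to 1638 at 6 weeks. At the 2 oldest ages that sum was almost all Hdc, the histidine decarboxylase gene, at 1018 ± 45.7 CPM at 14 days and 1476 ± 110 CPM at 6 weeks. At 6 weeks against 2 days, 11 of the 12 genes were lower, Hdc being the exception, against 20.7% of all genes. Tpsab1 and Mrgprb1 were at 0 counts at 14 days and 6 weeks. Cpa3, a mast cell protease gene, stood at 693 ± 185 CPM at 2 days, 13.5 ± 1.99 at 7 days, 0.752 ± 0.284 at 14 days and 0.762 ± 0.282 at 6 weeks. B cell markers (12 genes) summed to 541 to 870 CPM at 2 days, 1370 to 1644 at 7 days, 1733 to 3047 at 14 days and 2884 to 3472 at 6 weeks. Treml2 was higher at 7 days than at 6 weeks, while the B cell sum was lower. Erythroid markers (12 genes) reached 2710 to 4551 CPM at 7 days and stayed between 96.0 and 692 CPM at the other ages. Dendritic cell markers (9 genes) summed to 64.4 to 317 CPM, eosinophil markers (8) to 50.8 to 282 CPM, T and NK cell markers (12) to 49.6 to 164 CPM, platelet markers (8) to 66.5 to 125 CPM and stromal markers (9) to 48.6 to 125 CPM over all 12 libraries. The 16 neutrophil genes summed to 76350 to 99230 CPM at 2 days, 78940 to 88130 at 7 days, 95350 to 111200 at 14 days and 89900 to 113100 at 6 weeks. This list was split too: at 7 against 2 days 3 genes were higher and 6 lower, against 22.9% and 25.8% of all genes. Of 2 genes picked by their values, Csf3r had means of 2054, 697, 3756 and 5976 CPM from young to old. Cebpe stood at 491 ± 23.3 CPM at 7 days and 243 ± 156 at 2 days. The part of all these cell types in the member values was not tested.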

How the data were processed

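Polyadenylated RNA of Ly6G+ spleen cells was sequenced for 12 libraries, 3 at each of 4 ages. The authors deposited 1 table of whole-number counts per Ensembl gene with no normalization. RSEM 1.2.3, DESeq2 and the mm10 build are named in the submitters' processing notes, without their roles, so the counts may be rounded estimates. Library totals ran from 34495767 to 38795913, and the precision of member values is limited by the spread of 3 libraries rather than by counting. Genes were annotated with GENCODE M21, and promoters came from RefSeq (GRCm38.p6). Counts were tested with edgeR 4.0.16 in R 4.3.3 (TMM scaling, filterByExpr with a minimum count of 10, quasi-likelihood test, 1 model over 12 libraries, Benjamini-Hochberg adjustment over 15494 genes, threshold 0.05), and the procedure was tested on simulated data. CPM values use the TMM-scaled library size. Alternatives were DESeq2 1.42.0, RLE scaling, library totals alone, no filter, fits on 2 ages, a replicate block, and leaving out each library. The members and gene lists were chosen with earlier results of these data known. All 10 members are named, with the 2 genes of smallest joint p from each functional list and the gene most correlated with each member among those of at least 10 CPM. Predicted genes and pseudogenes were left out of that last search. Transcript sequence shared with other genes was measured in words of 50 bases. Protein sequences were not analysed here.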

Additional observations from a re-analysis of the deposited data

How the results depend on the processing

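The members called stayed within 1.5 times of 9 (any age), 7 (7 against 2 days), 8 (14 against 7 days) and 9 (6 weeks against 7 days) under every alternative run. Fits on the libraries of the 2 ages alone called 3 members for 6 weeks against 14 days, where the joint fit called 1, and 1 for 14 against 2 days, where it called 2. Leaving out 1 library gave 1 to 5 members for 6 weeks against 14 days, 1 to 6 for 14 against 2 days and 3 to 7 for 6 weeks against 2 days. Shares of all genes called in these fits are not given here. The highest member counts came without 2-day replicate 2. Without it, Siglece at 14 against 2 days was 0.39 and called, against -0.06 and not called with all libraries, and its range over fits without 1 library was -0.24 to 0.39. The cause was not tested. Of 1092 values recomputed, all of them log2 fold changes, 1049 kept their side of the threshold, 23 of these with a change of sign where neither fit made a call. A further 22 gained a call, 20 lost one and 1 reversed. With a replicate block, counts of members called were 8 for any age, 5 for 6 weeks against 2 days, 9 for 6 weeks against 7 days, 1 for 6 weeks against 14 days, and 7, 8 and 2 for the pairs of 7 with 2 days, 14 with 7 days and 14 with 2 days, and no pairwise call of a member changed. The numbers did not pair the libraries: 2 of 18 correlations between libraries of the same number exceeded 0.1. Only 1 of 12 libraries correlated best with its own number. Depth limits no member, but 3 libraries per age leave differences near the threshold sensitive to a single library.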
